A study of Homo sapiens with 28 samples.

Results

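The comparison described is RSL3+LA against vehicle in HT-1080 cells, a human fibrosarcoma line, and it rests on 8 of the 28 RNA libraries of the series, 4 per group. RSL3+LA cells received 10 nM RSL3 together with 80 µM linoleic acid (LA). Vehicle cells received DMSO, the solvent. Both groups were wild type and were kept in their medium overnight before total RNA was taken. The cells used beside them, also 4 libraries each, received 10 nM RSL3 alone, 80 µM LA alone, or 10 nM RSL3 with 80 µM of the conjugated isomer CLA18:2. The remaining groups, again 4 libraries each, received 80 µM CLA18:2 alone or 5 µM of the conjugated acid CLA18:3. They are not compared here, but they entered the gene filter, the scaling and the fit behind the tests. All groups are of this single tumour line. All genes were read in these libraries, and 16325 of 60286 listed genes had counts enough to be tested.

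RSL3 inhibits GPX4, the selenoenzyme that reduces phospholipid hydroperoxides, and cells that lose this activity can die by ferroptosis, an iron-dependent death driven by peroxidised membrane lipids. Linoleic acid is a polyunsaturated fatty acid whose methylene group between the double bonds is a site of radical attack. Cells sense such lipids through several known programs. Fatty acids bind PPAR receptors, which raise genes of fatty acid oxidation. Among the SREBP factors, which drive sterol and fatty acid synthesis, unsaturated fatty acids hold back mainly SREBP1. Electrophiles and peroxides free NRF2, which raises antioxidant and iron storage genes.

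Library totals ran from 17687170 to 23075684 counts in DMSO and from 18563280 to 19780836 in RSL3+LA. At a common total of 16226270 counts, 22655 to 22869 genes had a count in DMSO, against 20845 to 22433 in RSL3+LA, with the lowest value in replicate 2. Mitochondrially encoded mRNAs took 1.26 to 1.49% of counts in DMSO and 1.46 to 1.93% in RSL3+LA. Variation between libraries beyond counting error, as a coefficient, came to 4.51% for DMSO and 9.01% for RSL3+LA. Mesenchymal markers, a check of the cell line label, summed to 30910 to 32500 CPM in DMSO and 27720 to 30240 in RSL3+LA. All 14 of 14 were tested, among them ACTB, which is not particular to mesenchymal cells. CPM are counts relative to the library total, which was left unscaled for these marker sums and was scaled for all other levels. Epithelial markers summed to 14.7 to 21.6 CPM in DMSO and 15.5 to 17.2 in RSL3+LA, with 5 of 15 tested and EPCAM at 0 in every library of both groups. Blood cell markers had 1 of 15 tested, CSF1R, and summed to 8.52 to 10.5 CPM in DMSO and 17.3 to 21.3 in RSL3+LA. Endothelial markers had 4 of 10 tested, at 35.3 to 40.5 CPM in DMSO and 39.6 to 48.7 in RSL3+LA. The part of these library values in the results below was not tested. In RNA from whole cultures, a change in the number of cells in a state and a change per cell cannot be told apart.

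RSL3+LA changed the expression of fatty acid oxidation, antioxidant, iron storage, sterol synthesis and matrix genes. Of 16325 tested genes 1672 (10.2%) passed the edgeR quasi-likelihood test at a Benjamini-Hochberg adjusted p of 0.05, 887 higher (5.43%) and 785 lower (4.81%). Most changes were small. The median size among called genes was 0.31 on the log2 scale, and 97 genes changed at least 2-fold, 56 higher and 41 lower. The 4 libraries of one group did not overlap the 4 of the other in 1556 of the 1672 called genes, and in 3055 (18.7%) of all tested genes. The median log2 fold change over all tested genes was 0.01. The smallest p-values were those of RNF145, an ER ubiquitin ligase gene named here after its values were seen (1.23 ± 0.05, mean of 195 CPM over the 8 libraries, edgeR adjusted p = 6e-19), and CPT1A. Fold changes below are log2 with SE, from 4 libraries per group, and levels are CPM after TMM scaling of library totals. The SE uses a spread pooled over all 28 libraries of the series.

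**Figure D1:**
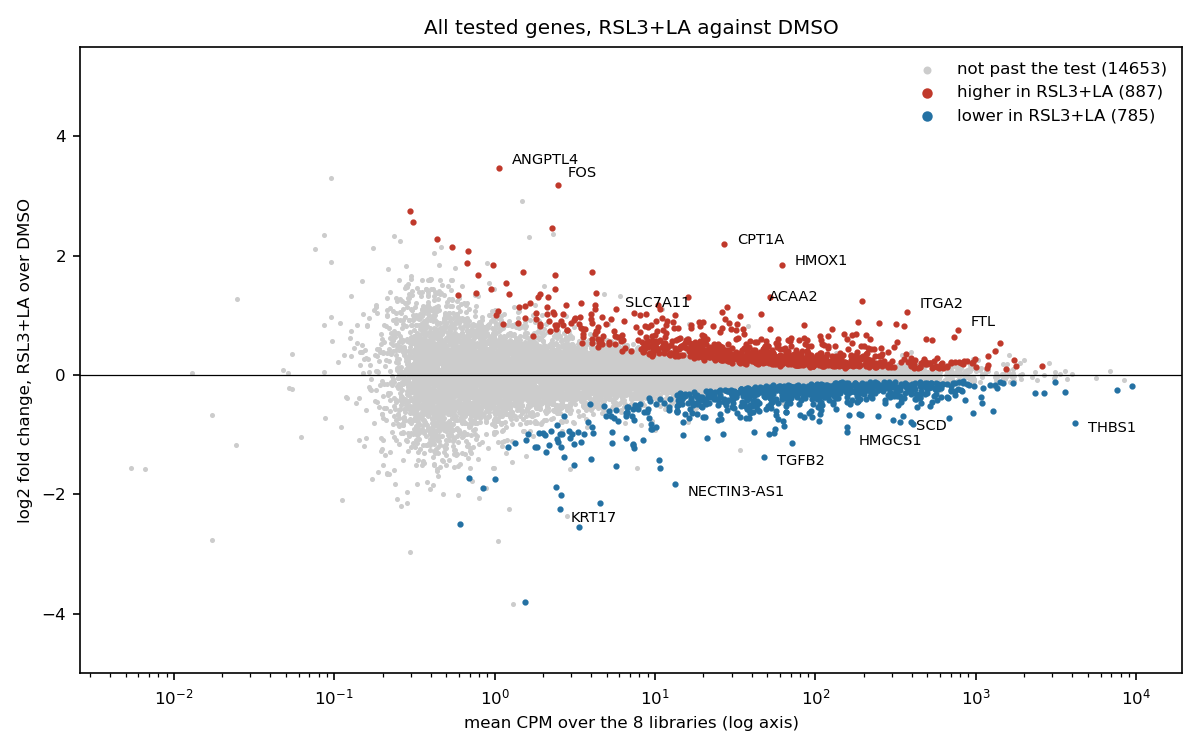
Each point is 1 of 16325 tested genes, with its mean CPM over the 8 libraries on a log axis and its log2 fold change of RSL3+LA over DMSO. The 887 higher genes are red and the 785 lower genes blue. CPT1A (2.19) and HMOX1 (1.84) stand highest among genes above 20 CPM, while FOS and ANGPTL4 reach larger folds at low counts.

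Among genes above 20 CPM on average, the largest increase was in CPT1A, the carnitine acyltransferase that starts mitochondrial import of long-chain fatty acids (chr11:68754620-68844410, minus strand, protein coding). CPT1A stood at 9.51, 11.3, 9.45 and 8.47 CPM in the DMSO libraries and at 50.5, 44.4, 40.9 and 41.5 CPM in the RSL3+LA libraries. All 4 treated libraries lay far above all controls, and the fold change was 2.19 ± 0.09 (edgeR adjusted p = 6e-19). Its next step, the carnitine carrier SLC25A20, went from 10.2, 8, 8.37 and 10.6 CPM to 25.8, 21, 24.5 and 20.5 CPM, a change of 1.30 ± 0.12 with no overlap. Of 32 tested members of the list of PPAR targets and fatty acid oxidation genes, 9 rose and 0 fell, with a list median of 0.13 against 0.01 over all genes. The members that rose also included the matrix thiolase ACAA2, at 28.2 to 31.1 CPM in DMSO and 59.8 to 62.4 in RSL3+LA (1.03 ± 0.06), and the dienoyl isomerase ECH1 (0.89 ± 0.08). The acyl-CoA dehydrogenase ACADVL rose by 0.55 ± 0.07. The electron transfer flavoprotein system, which passes electrons from these dehydrogenases to the respiratory chain, rose in all its tested parts, ETFDH (0.60 ± 0.07), ETFB (0.51 ± 0.12) and ETFA (0.21 ± 0.05). ANGPTL4, a secreted lipase inhibitor and classical PPAR target, had 2 to 7 counts in each DMSO library and 28 to 48 in each RSL3+LA library, and its increase of 3.47 ± 0.49 is therefore rough. PLIN2, a lipid droplet coat protein, had 0 or 1 count in DMSO libraries and 1 to 5 in RSL3+LA, too few for a fold. PDK4 had 0 counts in all 8 libraries and was not tested.

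Of 20 tested lipid droplet and triacylglycerol genes 4 rose and 1 fell, with a median of 0.02. The share that fell is near the 4.81% over all tested genes. The acyltransferases that begin glycerolipid synthesis rose, GPAT3 by 0.76 ± 0.08, GPAM by 0.32 ± 0.09 and GPAT4 by 0.18 ± 0.04. LPIN1, a phosphatidate phosphatase, fell by 0.26 ± 0.07, while its relative LPIN2 rose by 0.36 ± 0.11. The count was 3 without DMSO replicate 1, without DMSO replicate 2 and without RSL3+LA replicate 1.

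**Figure D2:**
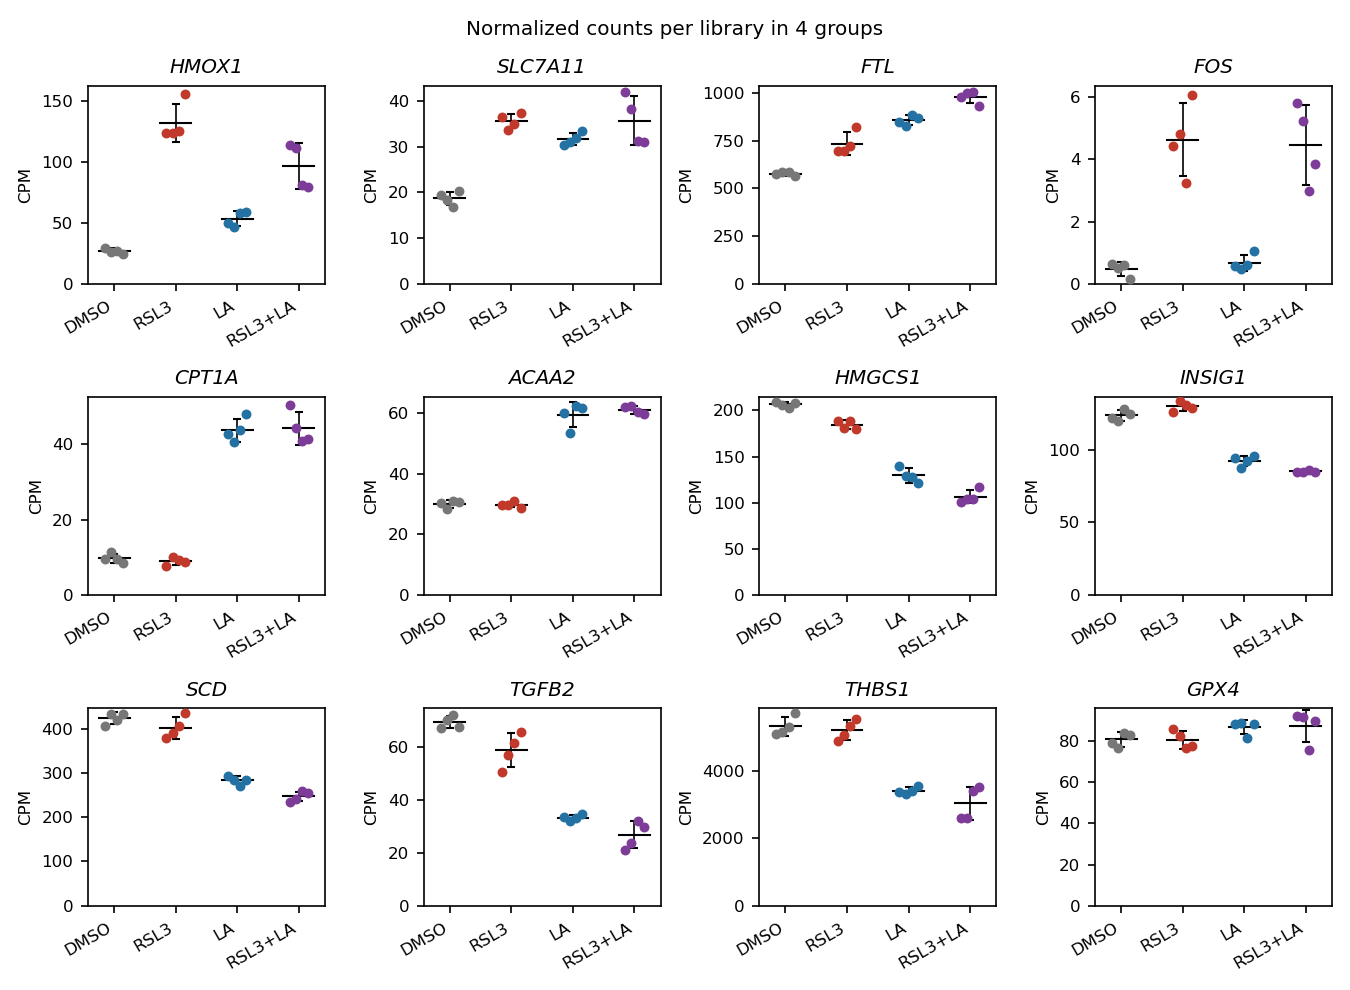
CPM of 12 genes in every library of DMSO, RSL3, LA and RSL3+LA (1 point per library, horizontal line for the mean, bar for the SD, n = 4, axes from 0). CPT1A and ACAA2 are high in both LA groups, FOS in both RSL3 groups, HMGCS1 and INSIG1 are lowest in RSL3+LA, and HMOX1 in RSL3+LA (79.2 to 114) lies between LA (46.9 to 58.9) and RSL3 (124 to 156).

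HMOX1, the oxygenase that breaks heme into biliverdin, carbon monoxide and iron (chr22:35380361-35394214, plus strand, protein coding), led the antioxidant genes. Its level was 29.7, 26.4, 27.2 and 24.4 CPM in DMSO and 114, 112, 81.2 and 79.2 CPM in RSL3+LA. Every treated library was above every control, with replicates 1 and 2 above replicates 3 and 4, and the change was 1.84 ± 0.11 (edgeR adjusted p = 1.4e-14). Of 33 tested NRF2 targets 23 rose and 0 fell, with a median of 0.32, and across the alternative analyses 21 to 27 passed. Among the redox enzymes were NQO1, a quinone reductase (0.58 ± 0.06), and TXNRD1, the cytosolic thioredoxin reductase (0.18 ± 0.05). PIR, an iron-binding nuclear protein, rose by 1.11 ± 0.12 and the organic anion exporter ABCC3 by 1.17 ± 0.15. SQSTM1, the autophagy receptor that also binds KEAP1, went from 242 to 270 CPM to 424 to 503 CPM (0.82 ± 0.05). The aldo-keto reductase genes AKR1C1 (2.08 ± 0.37, at 0.185 to 0.368 CPM in DMSO), AKR1B10 (1.67 ± 0.37) and AKR1C3 (1.31 ± 0.25) gave larger values from few counts. These have close paralogs, so which of them gave the reads is uncertain.

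The cystine and glutathione arm of this program, which feeds GPX4 with its substrate, rose in part. SLC7A11, the cystine importer, stood at 19.4, 18.3, 16.8 and 20.2 CPM in DMSO and at 42, 38.2, 31.3 and 31.1 CPM in RSL3+LA (0.94 ± 0.10, edgeR adjusted p = 7.1e-09). As with HMOX1, replicates 1 and 2 were the higher pair. Next was GCLM, the modifier subunit of the enzyme that sets the rate of glutathione synthesis, with 78.6, 71.8, 72 and 76 CPM in DMSO and 107, 111, 101 and 101 CPM in RSL3+LA (0.49 ± 0.07). Of 24 tested glutathione and cystine genes 7 rose and 0 fell, with a median of 0.17. SLC7A11, GCLC, GCLM and GSR are also on the NRF2 list. MGST1, a membrane glutathione transferase, rose by 0.35 ± 0.07, GSR, which regenerates glutathione, by 0.25 ± 0.05, and GSTP1 by 0.23 ± 0.04.

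NRF2 with its small MAF partners binds the antioxidant response element, searched here as TGACNNNGC on both strands from 250 bases before to 50 after each RefSeq start. It was found for 8 of 25 tested NRF2 list members with a promoter in the table and for 5 of 16 that rose, while 13.3% of 35097 promoters held it. In this and the searches below, a gene counts if any of its promoters holds the motif. The percent is of single promoters, and some genes have several, so the 2 shares are not on the same scale and no enrichment was tested. The GCLM promoter is shown because this gene rose and its match lies close to the start, its first base being 34 before it (RefSeq, GRCh38.p14, chr1:93909381-93909680, minus strand, 5′ to 3′, with the match in capitals as the reverse complement).
GCLM: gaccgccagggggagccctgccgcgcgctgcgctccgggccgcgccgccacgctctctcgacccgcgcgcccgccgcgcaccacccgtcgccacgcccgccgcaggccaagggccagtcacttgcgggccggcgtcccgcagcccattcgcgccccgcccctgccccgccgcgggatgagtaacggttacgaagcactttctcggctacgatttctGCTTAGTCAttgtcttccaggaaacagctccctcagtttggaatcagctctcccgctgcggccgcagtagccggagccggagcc

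Transcripts of iron storage proteins rose with these genes. FTL, the ferritin light chain, had 575, 587, 587 and 563 CPM in DMSO and 981, 1002, 1006 and 931 CPM in RSL3+LA, a change of 0.76 ± 0.05 in the same direction in 4 of 4 libraries. FTH1, the ferritin heavy chain that oxidises iron for storage, went from 152 to 188 CPM to 238 to 318 CPM (0.60 ± 0.08). Of 24 tested iron and heme genes 8 rose and 0 fell, with a median of 0.04. HMOX1, FTL, FTH1, BLVRB and SLC48A1 are also on the NRF2 list. STEAP3, an endosomal ferrireductase (0.31 ± 0.05), the metal importer SLC39A14 (0.26 ± 0.04) and ALAS1, the first enzyme of heme synthesis (0.23 ± 0.06), were among them. TFRC, the transferrin receptor, was 1072 to 1134 CPM in DMSO and 1050 to 1168 CPM in RSL3+LA, with a difference of 0.02 (95% interval -0.07 to 0.11). Metallothionein MT2A rose by 0.54 ± 0.06 and MT1E by 0.30 ± 0.06, 2 of 5 tested members of their list.

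Ferroptosis regulators went both ways. Of 41 tested, 8 rose and 5 fell, with a median of -0.03. HMOX1, FTL, FTH1, SLC7A11 and TXNRD1 are on this list and on the NRF2 list. GPX4, the target of RSL3, had 79.1, 76.7, 84.1 and 83.1 CPM in DMSO and 92.1, 91.7, 75.7 and 89.6 CPM in RSL3+LA. The groups overlapped through RSL3+LA replicate 3, and the difference of 0.11 ± 0.07 did not pass the test (95% interval -0.03 to 0.26, edgeR adjusted p = 0.415). AIFM2, the ubiquinone reductase also called FSP1, was at 22.6 to 26.4 CPM and 24.6 to 32 CPM, with a difference of 0.20 (95% interval 0.03 to 0.38, edgeR adjusted p = 0.156). ACSL4, the ligase that prepares polyunsaturated acids for membrane lipids, fell from 216 to 232 CPM to 164 to 190 CPM (-0.32 ± 0.05). DHCR7, which consumes the radical-trapping sterol 7-dehydrocholesterol, fell by 0.57 ± 0.05, and GCH1, the entry enzyme of tetrahydrobiopterin synthesis, by 0.48 ± 0.16. PTGS2 and CHAC1, transcripts often measured as signs of ferroptosis, did not pass. PTGS2 differed by -0.31 ± 0.15 and CHAC1, a glutathione-degrading enzyme, by -0.13 ± 0.17, at 3.24 to 4.62 CPM in DMSO and 2.52 to 4.45 CPM in RSL3+LA. Of 19 tested selenoprotein genes 1 rose, TXNRD1, and 1 fell, the mitochondrial reductase TXNRD2 (-0.50 ± 0.08). These shares are near the 5.43% higher and 4.81% lower over all tested genes.

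Sterol synthesis had the largest share of lower members among the lists. HMGCS1, the synthase that opens the mevalonate pathway (chr5:43289395-43313512, minus strand, protein coding), had 209, 206, 203 and 208 CPM in DMSO and 101, 104, 104 and 117 CPM in RSL3+LA. The groups were far apart and tight within, and the fold change was -0.96 ± 0.05 (edgeR adjusted p = 8.3e-16). In the sterol list, made of cholesterol synthesis enzymes and other SREBP2 targets, 19 of 24 tested genes fell and 0 rose, with a median of -0.49. The decrease ran from the first step, ACAT2 (-0.78 ± 0.06), through MVK (-0.47 ± 0.09), MVD (-0.72 ± 0.10) and IDI1 (-0.49 ± 0.07) of the mevalonate segment to the squalene enzymes FDFT1 (-0.49 ± 0.06) and SQLE (-0.40 ± 0.06) and the late sterol enzymes LSS (-0.65 ± 0.17) and MSMO1 (-0.58 ± 0.06). INSIG1, which anchors the SREBP complex in the endoplasmic reticulum (ER), fell from 122, 120, 128 and 125 CPM to 85, 84.7, 86.3 and 85 CPM (-0.54 ± 0.05), and SREBF2, the gene of the factor itself, by 0.28 ± 0.06.

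The sterol regulatory element, searched as ATCAC and CCAC with 1 base between them on both strands in the same window, was found for 1 of 18 tested members of this list with a promoter in the table, and in 0.154% of 35097 promoters. That member was SREBF2, which fell, and its promoter is shown because SREBP2 is known to act on its own gene (RefSeq, GRCh38.p14, chr22:41832855-41833154, plus strand, 5′ to 3′, with the match in capitals, its first base 134 before the start). The PPAR element, searched as a repeat of AGGTCA with 1 base between the copies, was found for 0 of 23 tested members of the fatty acid oxidation list with a promoter in the table. It was in 0.0228% of all promoters.
SREBF2: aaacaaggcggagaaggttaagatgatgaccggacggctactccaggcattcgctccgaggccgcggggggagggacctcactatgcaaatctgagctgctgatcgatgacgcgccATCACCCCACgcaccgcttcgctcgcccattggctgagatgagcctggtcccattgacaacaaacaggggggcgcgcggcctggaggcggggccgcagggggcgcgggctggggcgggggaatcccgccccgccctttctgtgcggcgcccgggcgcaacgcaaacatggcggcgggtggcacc

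Fatty acid synthesis genes that passed the test fell, with 1 exception. SCD, the delta-9 desaturase that makes monounsaturated acids, had 406, 434, 420 and 433 CPM in DMSO and 235, 241, 258 and 254 CPM in RSL3+LA (-0.78 ± 0.04, edgeR adjusted p = 1e-14), without overlap. The desaturases that act on linoleic acid and its products fell less, FADS2 by 0.28 ± 0.05 and FADS1 by 0.14 ± 0.04, and the citrate lyase ACLY fell by 0.22 ± 0.04. ELOVL6, an elongase of saturated acids, rose by 0.49 ± 0.08, the 1 riser beside 5 that fell of 21 tested. That share of risers is near the 5.43% over all tested genes. Of 9 tested LXR targets SCD passed the test, a share near the 10.2% over all genes. The LXR count of 1 was 2 without DMSO replicate 4, with the replicate block, with no low-count filter, with DESeq2, with limma voom and quality weights, with only the groups compared in the fit, and with the conjugated acid libraries left out of it.

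HSPA5, the ER chaperone BiP, was at 1082, 1091, 1056 and 1040 CPM in DMSO and at 1365, 1390, 1248 and 1298 CPM in RSL3+LA (0.31 ± 0.03, edgeR adjusted p = 2.5e-08). The groups did not overlap. Of 24 tested unfolded protein response genes 9 rose, 0 fell and 15 did not pass, with a median of 0.15. DNAJB9, a cochaperone of HSPA5, rose by 0.46 ± 0.10, SEC24D, a coat protein of ER export vesicles, by 0.41 ± 0.06, EDEM1, which directs misfolded glycoproteins to degradation, by 0.33 ± 0.05, and HSP90B1 by 0.22 ± 0.04. The ER stress element, searched as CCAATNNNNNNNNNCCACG on both strands, was in promoters of 7 of 22 tested members and of 2 of 7 that rose, HSPA5 and HSP90B1, against 0.0769% of all promoters. The HSPA5 promoter is shown as that of the list's most strongly tested member (RefSeq, GRCh38.p14, chr9:125241294-125241593, minus strand, 5′ to 3′, with the match in capitals, its first base 66 before the start).
HSPA5: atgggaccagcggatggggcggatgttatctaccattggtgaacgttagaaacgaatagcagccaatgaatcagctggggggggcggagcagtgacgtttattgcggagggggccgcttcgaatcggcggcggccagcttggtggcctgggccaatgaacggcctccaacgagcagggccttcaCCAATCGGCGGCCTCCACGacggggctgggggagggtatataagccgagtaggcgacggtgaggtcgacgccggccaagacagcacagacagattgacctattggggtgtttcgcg

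In the integrated stress response, GDF15, a secreted stress cytokine, went from 235, 230, 228 and 215 CPM to 458, 439, 362 and 379 CPM (0.85 ± 0.06, edgeR adjusted p = 3e-12). Among 33 tested genes of the ATF4 program 9 were higher and 2 lower, with a median of 0.13. The risers included DDIT4, an inhibitor of mTORC1 (0.73 ± 0.17), the factor CEBPB (0.55 ± 0.09) and the serine synthesis enzyme PHGDH (0.36 ± 0.07), while the arginine carrier SLC7A1 (-0.35 ± 0.05) and STC2 (-0.32 ± 0.05) fell. DDIT3, the factor CHOP, was at 3.42 to 4.29 CPM and 4.29 to 5.13 CPM and did not pass (0.23, 95% interval -0.11 to 0.56). Of 18 tested cytosolic heat shock genes 0 rose and 1 fell, DNAJB1 (-0.18 ± 0.05). The p53 targets had 4 of 22 higher, led by GDF15, and 1 lower, GADD45A (-0.41 ± 0.08). In the ATF4, heat shock and p53 lists the share that fell is near the 4.81% over all tested genes. The p53 count of 5 was 3 without DMSO replicates 3 or 4 and without RSL3+LA replicates 1 or 3, and 3 with no low-count filter.

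FOS, a subunit of the AP-1 factor, had the largest increase among genes of at least 2 CPM on average. It stood at 0.63, 0.509, 0.601 and 0.167 CPM in DMSO, which is 3 to 14 counts, and at 5.81, 5.23, 2.97 and 3.85 CPM in RSL3+LA, which is 58 to 111 counts (3.18 ± 0.27, edgeR adjusted p = 7.2e-11). FOSB rose by 1.11 ± 0.17 and the Krüppel-like factors KLF4 and KLF10 by 0.76 ± 0.21 and 0.62 ± 0.05. Other immediate early genes fell, among them SRF (-0.48 ± 0.06), the factor that drives many of them, the phosphatase DUSP1 (-0.47 ± 0.08), the growth factor HBEGF (-0.41 ± 0.05) and KLF6 (-0.32 ± 0.04). In all, 5 of 29 rose and 7 fell. Of 16 tested NF-kappaB and cytokine genes 5 rose and 1 fell, and the count of 6 was 3 without DMSO replicate 2 or RSL3+LA replicate 1. Here too the share that fell is near the 4.81% over all tested genes. CXCL8, the neutrophil chemokine interleukin 8, went from 1.53 to 2.1 CPM to 3.38 to 3.95 CPM (1.03 ± 0.18), and the inhibitor NFKBIA rose by 0.31 ± 0.08.

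Of 37 tested matrix and adhesion genes 9 rose and 6 fell. TGFB2, a TGF-beta ligand, fell from 67.3, 70.3, 72.2 and 67.6 CPM to 21.2, 23.9, 32.2 and 29.8 CPM (-1.37 ± 0.11, edgeR adjusted p = 4.3e-11). THBS1, a matrix protein that activates latent TGF-beta, fell from 5095, 5157, 5315 and 5710 CPM to 2619, 2601, 3405 and 3521 CPM (-0.81 ± 0.07). In both, RSL3+LA replicates 1 and 2 were the lower pair. The collagen COL1A1 fell by 0.50 ± 0.08 and SPARC by 0.30 ± 0.04. The collagen receptor subunit ITGA2 rose from 224 to 262 CPM to 442 to 561 CPM (1.06 ± 0.09), and the ligand TGFB1 (0.25 ± 0.05), its receptors TGFBR1 (0.24 ± 0.07) and TGFBR2 (0.21 ± 0.05) and the inhibitor TIMP1 (0.32 ± 0.05) also rose. Of 14 mesenchymal markers 1 rose and 4 fell, and SPARC and TIMP1 are on both lists. Among these markers the share that rose is near the 5.43% over all tested genes.

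VEGFA, the endothelial growth factor, led the hypoxia and glycolysis list, with 133, 129, 131 and 132 CPM in DMSO and 232, 239, 177 and 185 CPM in RSL3+LA (0.67 ± 0.07, edgeR adjusted p = 4.2e-09). Of 30 tested members 12 rose and 3 fell, with a median of 0.15. PFKFB4, which makes a regulator of glycolysis, rose by 0.77 ± 0.10, with 57.3 CPM in RSL3+LA replicate 1 against 39.1 to 41.7 CPM in the other 3. PDK1, which blocks pyruvate dehydrogenase, rose by 0.53 ± 0.09. The glucose carrier SLC2A1 (-0.36 ± 0.05), hexokinase HK2 (-0.30 ± 0.05) and the oxygen sensor EGLN1 (-0.42 ± 0.11) fell.

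Of 38 DNA replication genes 0 rose and 7 fell, with the licensing factor CDC6 at -0.31 ± 0.04 and the ribonucleotide reductase subunit RRM2 at -0.20 ± 0.04, and the count was 4 without RSL3+LA replicate 2. Of 28 mitotic genes 0 rose and 5 fell, KIF23 by 0.25 ± 0.05 and AURKA by 0.21 ± 0.05 among them, and the count was 3 without DMSO replicate 1 or RSL3+LA replicate 2 and 2 without RSL3+LA replicate 1. The mitotic count was 9 with limma voom and quality weights and also with only the groups compared in the fit. Of 53 cytosolic ribosomal protein genes 9 rose and 0 fell, with a median of 0.09, and the count was 15 with limma voom, 15 with only the groups compared, 16 with DESeq2 and 20 with limma voom and quality weights. Nuclear-encoded respiratory chain genes had 9 of 41 higher and 0 lower, among them ATP5PO (0.41 ± 0.11) and COX7B (0.31 ± 0.08), and 3 to 5 were called without each DMSO library in turn and without RSL3+LA replicates 2 or 4. None of the 13 mitochondrially encoded mRNAs passed, with a median of 0.21. With no filter on low counts 10 of the 13 passed, and with only the groups compared 4 did.

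Lysosome and autophagy genes had 6 of 31 higher and 0 lower, with the proteases CTSD (0.48 ± 0.05) and CTSL (0.26 ± 0.05) after SQSTM1. The lysosome count of 6 was 10 with limma voom and quality weights and 12 with only the groups compared. In aldehyde and electrophile detoxification 5 of 18 rose, led by ALDH2, the mitochondrial aldehyde dehydrogenase (0.57 ± 0.10), and 1 fell, ALDH1B1 (-0.48 ± 0.07). Its share of lower members is near the 4.81% over all tested genes. The detoxification count of 6 was 2 or 3 without each library in turn other than RSL3+LA replicate 3. Of 19 tested interferon response genes IFI44 rose (0.91 ± 0.18), a share near the 5.43% of all genes that rose. The interferon count of 1 was 2 without RSL3+LA replicate 1, with no low-count filter, with only the groups compared in the fit and with the conjugated acid libraries left out of it. CSF1R, a macrophage growth factor receptor, rose from 8.25 to 9.76 CPM to 16.4 to 20.5 CPM (95% interval of the log2 change 0.77 to 1.24), while the blood marker PTPRC had 0 counts in all 8 libraries.

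**Figure D3:**
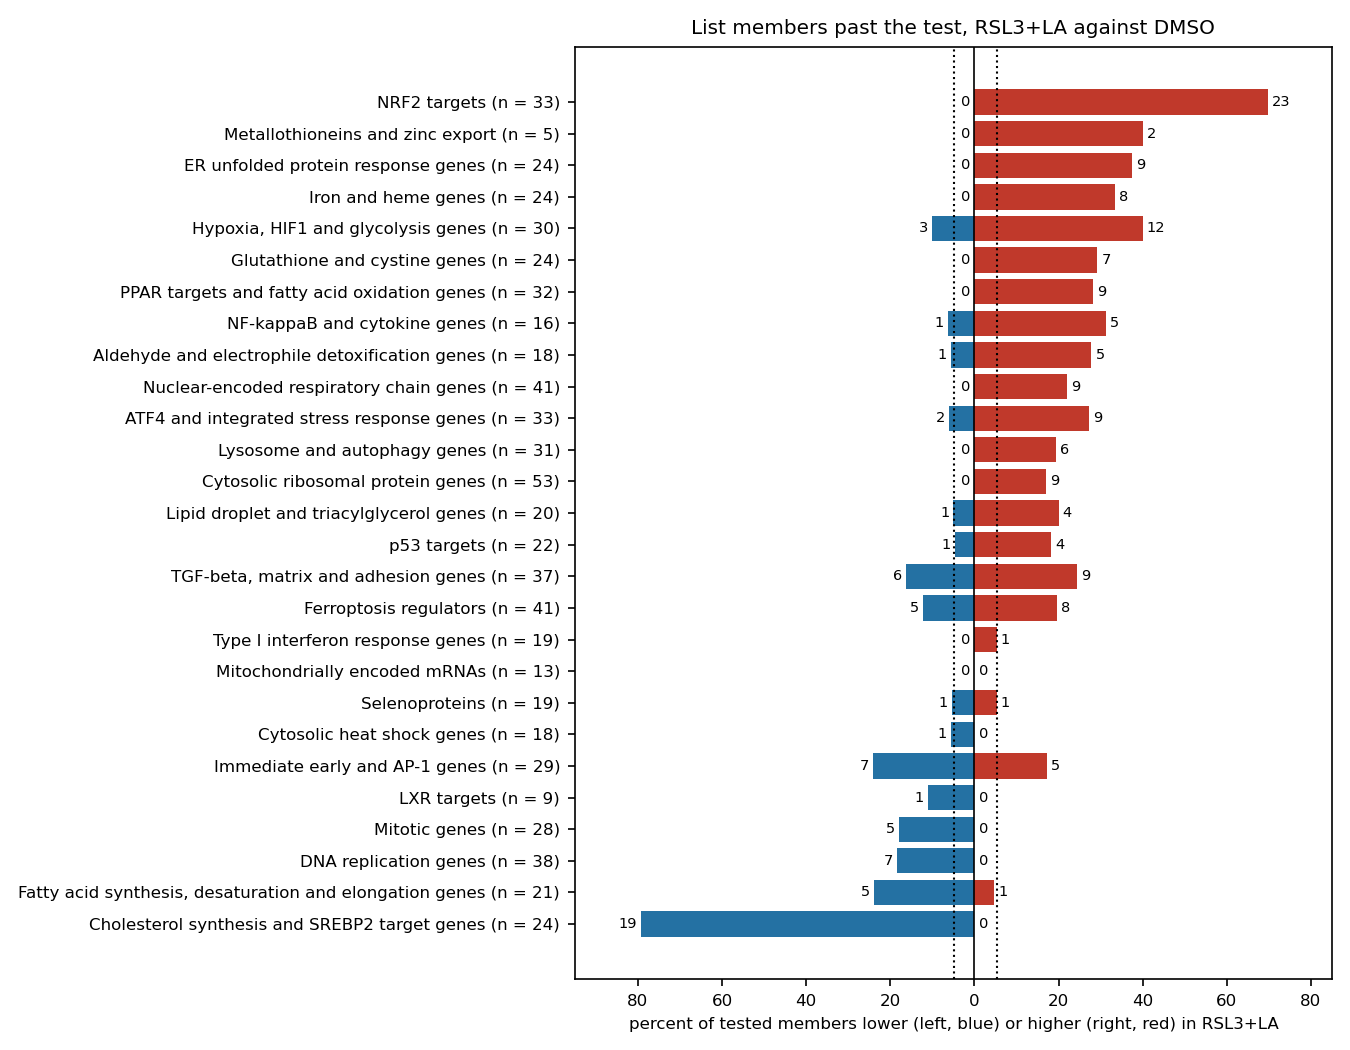
For each list other than the cell type markers, the percent of tested members past the test in RSL3+LA against DMSO, higher to the right in red and lower to the left in blue, with the number of members at the bar ends and the number tested beside the name. Dotted lines mark the shares over all tested genes, 5.43% higher and 4.81% lower. NRF2 targets (23 of 33 higher) and cholesterol genes (19 of 24 lower) lie farthest from the lines.

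Beyond the lists, the largest increases at 2 CPM or more included ADGRG1, an adhesion G protein-coupled receptor, from 26.4 to 32.2 CPM to 68.6 to 81 CPM (1.31 ± 0.08, edgeR adjusted p = 4.5e-14). Others were the transcription factor ATOH8 (1.68 ± 0.30), the cytokine receptor IL21R (1.38 ± 0.21) and the inositol phosphatase IMPA2 (1.30 ± 0.28), all under 8 CPM. RAB11B-AS1 rose by 1.73 ± 0.20, and as an antisense gene it may share reads with its partner, since no strand setting is stated. That partner, RAB11B, rose by 0.77 ± 0.06 at a mean of 127 CPM, against 4.03 CPM for RAB11B-AS1. The interval of RAB11B-AS1 also meets that of ANGPTL4, which rose, at chr19:8374373. Whether reads were shared was not tested. MIR34AHG, the host gene of a p53-responsive microRNA, was called at 1.44 ± 0.47 with an adjusted p of 0.0459, which was above 0.05, up to 0.126, without each of 7 libraries in turn. Among the largest decreases were the smooth muscle protein gene CNN1, from 15.2 to 16.8 CPM to 4.82 to 6.53 CPM (-1.56 ± 0.19), the growth factor gene GDF6 (-1.52 ± 0.22), the sphingosine 1-phosphate receptor S1PR1, from 14.5 to 16 CPM to 4.88 to 6.33 CPM (-1.43 ± 0.15), LINC01554 (-1.87 ± 0.42) and FLG (-1.38 ± 0.28). NECTIN3-AS1, also antisense, fell from 18.1 to 22.5 CPM to 4.44 to 7.67 CPM (-1.82 ± 0.16). The keratin gene KRT17 (-2.25 ± 0.35) and NOMO1 (-2.15 ± 0.65) have near-identical copies, and NOMO1 lost its call, with adjusted p up to 0.0752, without each RSL3+LA library in turn and without DMSO replicates 2 or 4.

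RSL3+LA against LA asks what the GPX4 inhibitor added to the fatty acid. FOS was higher with RSL3, at 2.97 to 5.81 CPM against 0.475 to 1.06 CPM in LA (2.69 ± 0.25, edgeR adjusted p = 2.8e-08), as were FOSB (1.43 ± 0.17) and HMOX1, at 79.2 to 114 CPM against 46.9 to 58.9 CPM (0.85 ± 0.10). In all, 8 of 16325 genes passed (0.049%), 6 higher (0.0368%) and 2 lower (0.0123%), and 1158 had an unadjusted p under 0.05. The other 3 higher genes were GCNT3, a mucin glycosyltransferase at 3 to 6 counts per LA library and 7 to 22 per RSL3+LA library (1.78 ± 0.36), NPIPB5, a member of a duplicated family with uncertain reads (0.74 ± 0.12), and ATF3 (0.47 ± 0.09). Among the lower genes was HMGCS1 of the sterol list (-0.28 ± 0.05, 101 to 117 CPM against 121 to 140 in LA), without overlap. Several of these calls are near the threshold. HMGCS1 lost its call without RSL3+LA replicates 1, 2 or 3 or LA replicate 1 and with only the groups compared (edgeR adjusted p up to 0.158). NPIPB5 lost it without RSL3+LA replicate 3. ATF3 lost it without RSL3+LA replicates 1 or 2 or LA replicates 3 or 4, with limma voom and with only the groups compared. GCNT3 lost it in 11 of 14 alternatives, among them 7 left-out libraries and limma voom with and without quality weights. CPT1A differed by 0.01 (95% interval -0.15 to 0.18). Mitochondrially encoded mRNAs had a median of 0.69 in this comparison, with 0 of 13 called, and their share was 0.451 to 1.44% of counts in LA.

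RSL3+LA against RSL3 asks what the fatty acid added to the inhibitor. Here 1564 genes passed (9.58%), 617 higher (3.78%) and 947 lower (5.8%). Among genes of at least 2 CPM on average without overlap, CPT1A had the largest increase, at 7.7 to 10.1 CPM in RSL3 (2.30 ± 0.09), followed by RAB11B-AS1 (1.89), ATOH8 (1.56), the ligand gene WNT9A (1.33) and the clock repressor BHLHE41 (1.28). The largest decreases by the same rule were KRT17 (-1.93), the gene listed without a symbol as ENSG00000289069, at 3.34 to 4.36 CPM in RSL3 and 0.367 to 1.63 CPM in RSL3+LA (-1.83), and HSPA6, an inducible heat shock gene with close paralogs, which stood at 6.24, 6.44, 5.33 and 7.04 CPM in RSL3 and at 2.41, 2.37, 1.23 and 1.82 CPM in RSL3+LA (-1.68 ± 0.20, edgeR adjusted p = 1.2e-07), together with NECTIN3-AS1 (-1.58). ATF3 was lower by 0.87 ± 0.09 than with RSL3 alone, HMOX1 by 0.46 ± 0.10 and DDIT4 by 0.84 ± 0.16. Sterol genes had 19 of 24 lower and 0 higher, fatty acid oxidation genes 9 of 32 higher and 0 lower, and NRF2 targets 10 of 33 higher and 1 lower. For NRF2 targets the lower share is under the 5.8% over all tested genes. The heat shock list had 6 of 18 lower and 0 higher.

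The responses of the combination and of its parts are set side by side below, each over the same DMSO libraries, which the comparisons therefore share. LA alone called 1358 genes (8.32%), 801 higher (4.91%) and 557 lower (3.41%), and RSL3 alone called 33 (0.202%), 29 higher (0.178%) and 4 lower (0.0245%). HMOX1 changed by 2.30 with RSL3, 0.99 with LA and 1.84 with both. FOS changed by 3.23, 0.49 and 3.18 in that order, of which the value for LA did not pass. ATF3 rose by 0.84 with RSL3, fell by 0.50 with LA, and was at -0.03 (edgeR adjusted p = 0.897) with both. CPT1A was at -0.11 with RSL3, not past the test, 2.18 with LA and 2.19 with both.

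The RSL3 by LA interaction tests whether the combination departed from the sum of its parts on the log2 scale. It was called in 4 of 16325 genes (0.0245%), 0 higher and 4 lower, with 985 at an unadjusted p under 0.05, 37 called by DESeq2 and 3 by limma voom. Without RSL3 replicate 4 the count stayed at 4, and 609 genes had an unadjusted p under 0.05. HMOX1 reached 1.84 where the parts sum to 3.29, a shortfall of -1.45 ± 0.15 (edgeR adjusted p = 4.3e-07). DDIT4 stood at 2.84, 3.28, 4.08 and 2.9 CPM in DMSO, at 9.05 to 10.2 CPM in RSL3, 4.93 to 7.25 CPM in LA and 6.34, 7.4, 4.3 and 3.9 CPM in RSL3+LA, with replicates 3 and 4 of RSL3+LA beside the highest DMSO library, and its interaction was -1.61 ± 0.24 (edgeR adjusted p = 0.0007). SLC7A11 was nearly alike in all 3 treatments, at 0.93, 0.77 and 0.94, with an interaction of -0.76 ± 0.13, which lost its call without DMSO replicate 3 (adjusted p = 0.0708) and with limma voom (0.149). NPC1, a cholesterol exporter of the lysosome, had a log2 fold change over DMSO of 0.31 with RSL3, 0.12 with LA (edgeR adjusted p = 0.117) and 0.04 with both (edgeR adjusted p = 0.709), the last 2 not past the test, and an interaction of -0.39 ± 0.07. For the other NRF2 targets among the fixed genes the interaction was -0.13 for GCLM, -0.20 for TXNRD1, -0.19 for NQO1, -0.15 for FTL and -0.21 for FTH1, none past the test. ATF3 (-0.37, 95% interval -0.62 to -0.11) and HSPA6 (-1.33, 95% interval -1.95 to -0.72) also missed the adjusted threshold.

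**Figure D4:**
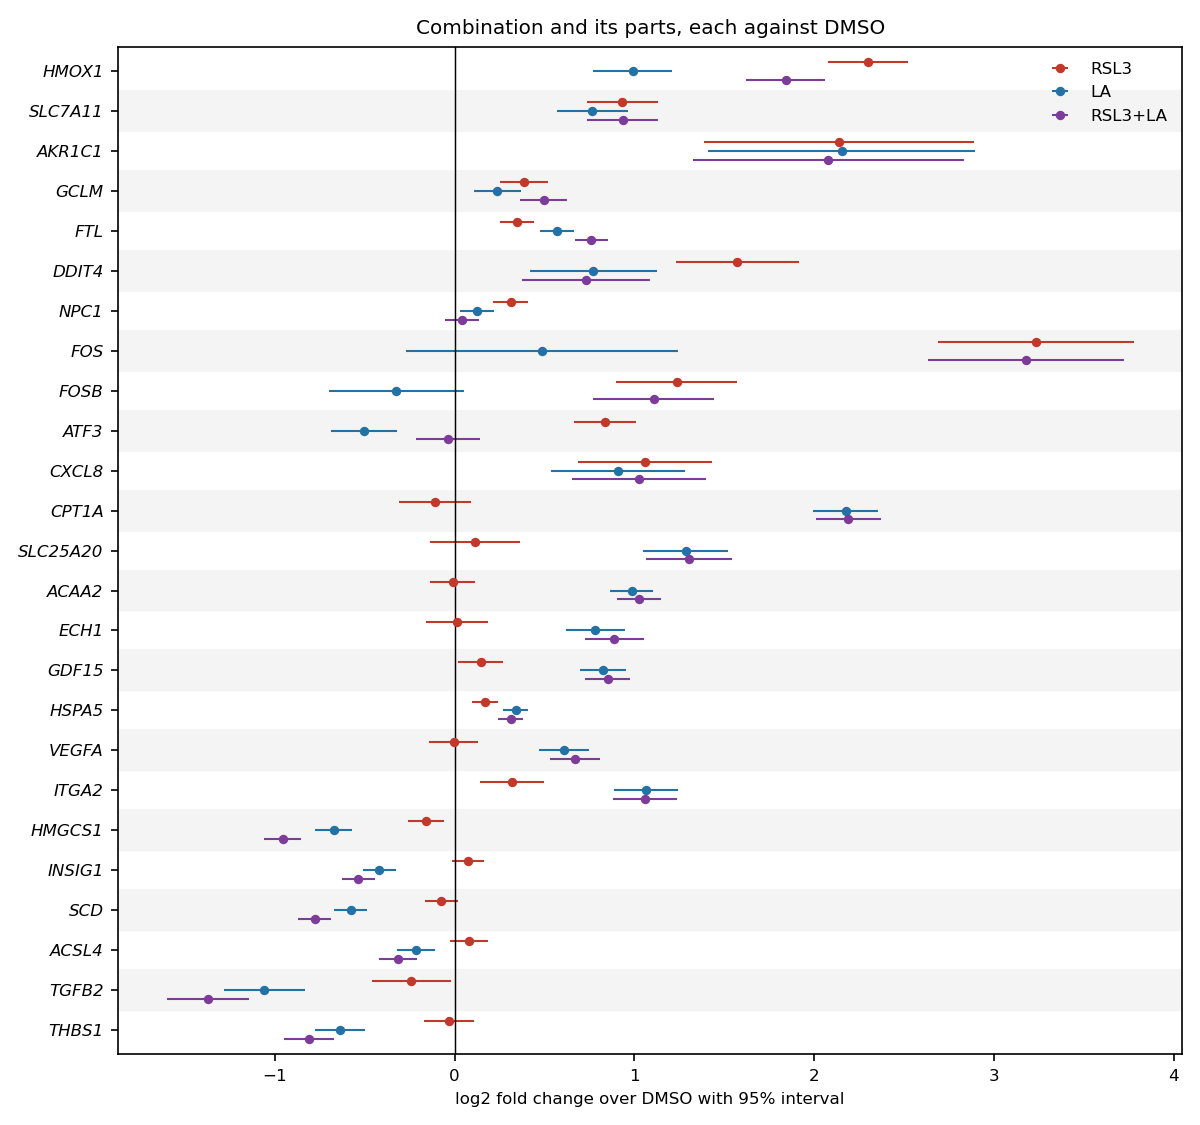
Log2 fold changes over DMSO, with 95% intervals, of 25 genes in RSL3 (red), LA (blue) and RSL3+LA (purple), 4 libraries per group. HMOX1, DDIT4 and ATF3 in RSL3+LA lie below RSL3 alone, FOS and FOSB lie beside RSL3, and CPT1A, SLC25A20, ACAA2 and VEGFA lie beside LA.

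The conjugated isomer CLA18:2 has its double bonds next to each other, while in LA a methylene group separates them. With RSL3 at 10 nM and either acid at 80 µM, 1 such pair was compared, and p-values were adjusted over all 16325 genes. Called genes numbered 4254 (26.1%), 1958 higher (12%) and 2296 lower (14.1%) in RSL3+LA. HMOX1 was 114, 112, 81.2 and 79.2 CPM with LA and 810, 713, 671 and 770 CPM with CLA18:2, a difference of -2.94 ± 0.10. FOS was lower with LA by 3.80 ± 0.16, CXCL8 by 2.77 ± 0.14, SLC7A11 by 2.18 ± 0.09, ATF3 by 1.85 ± 0.08, GCLM by 1.47 ± 0.06 and AIFM2 by 1.37 ± 0.08. NRF2 targets had 0 of 33 higher and 30 lower, and unfolded protein response genes 0 of 24 higher and 23 lower. The sterol list had 16 of 24 higher and 0 lower in RSL3+LA, with SCD higher by 0.74 ± 0.05, INSIG1 by 0.53 ± 0.05 and HMGCS1 by 0.38 ± 0.05. TGFB2 was 21.2 to 32.2 CPM with LA and 6.68 to 11.6 CPM with CLA18:2 (1.44 ± 0.13), and VEGFA was higher with LA by 0.67 ± 0.07.

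Several genes did not pass between the isomers. GPX4 differed by 0.06 (95% interval -0.08 to 0.21), TFRC by -0.07 (-0.16 to 0.02), ACSL3 by -0.05 (-0.13 to 0.04), GDF15 by -0.12 (-0.25 to 0.00) and SLC25A20 by -0.26 (-0.49 to -0.04, edgeR adjusted p = 0.072). CPT1A was lower with LA by 0.35 ± 0.08, at 40.9 to 50.5 CPM against 54.4 to 57.2 CPM. Beside these results, RSL3+CLA18:2 libraries had 19005 to 21273 detected genes at the common total, a mitochondrial share of 0.263 to 1.68% and a coefficient of variation of 15.3%. Mitochondrially encoded mRNAs had a median difference of 1.33, with 9 of 13 higher in RSL3+LA, and the part of these values in the isomer comparison was not tested.

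**Figure D5:**
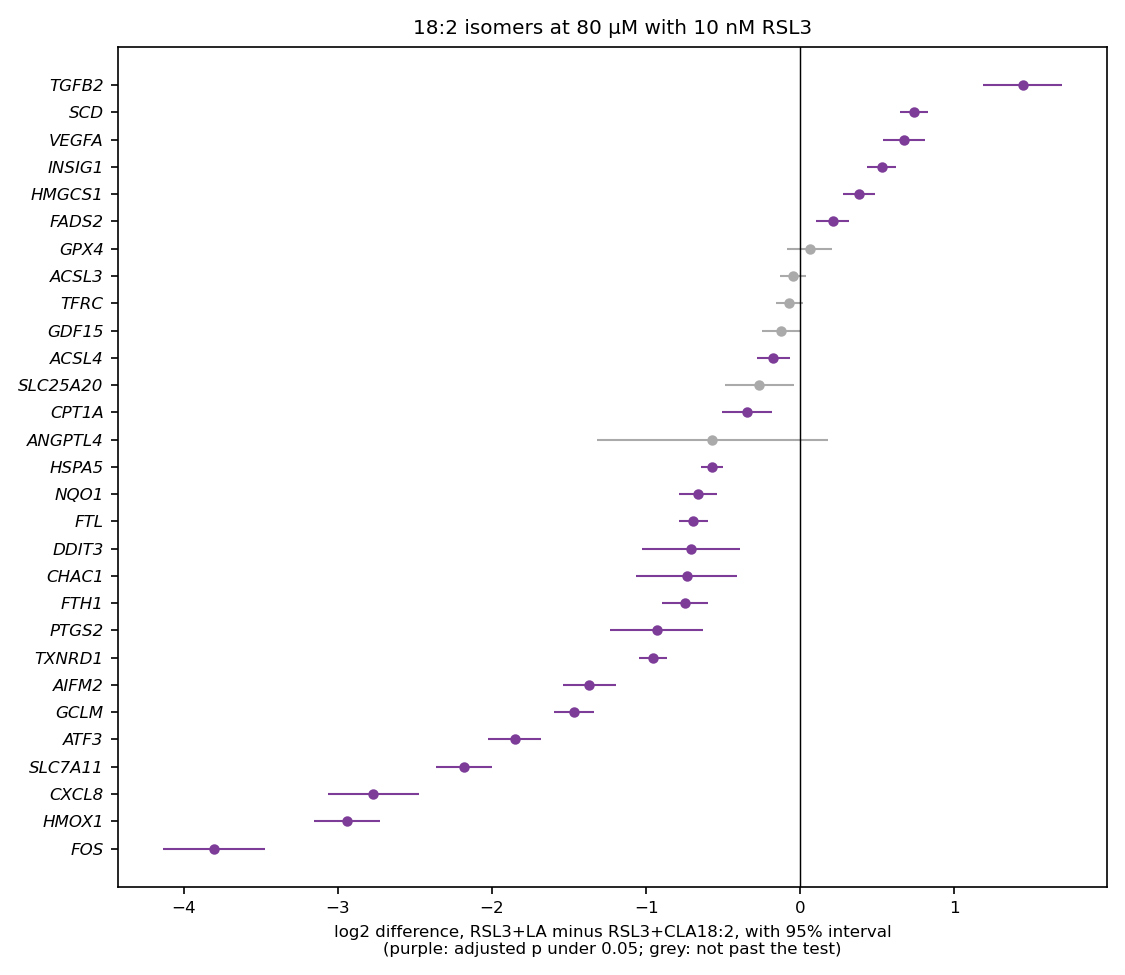
Log2 difference of RSL3+LA minus RSL3+CLA18:2 with its 95% interval for 29 genes, 4 libraries per group, in purple where the adjusted p is under 0.05 and grey otherwise. FOS (-3.80) and HMOX1 (-2.94) lie farthest to the left and TGFB2 (1.44) farthest to the right.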

How the data were processed

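The deposited tables hold raw counts per gene symbol, made by the authors and used as deposited. The tools named are HISAT, SAMtools, featureCounts and DESeq2, with build hg38, per the submitters' processing notes. Versions, annotation and strand setting are not given in the sources used here. Fatty acid doses are in µM as in the design text, although the sample labels have mM. It calls the 4 replicates of a group independent, and p-values measure only the spread between libraries of the same group. That spread was pooled over all 28 libraries, although the coefficient of variation ran from 4.51% in DMSO to 19.96% in CLA18:3.

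The default edgeR filter on 7 groups kept 16325 genes, which hold 99.9% of counts. Counts were scaled by TMM, and edgeR 4.0.16 (R 4.3.3) took all 28 libraries in 1 fit with a mean for each group, tested by quasi-likelihood with Benjamini-Hochberg adjustment at 0.05. SE is the size of the log2 fold change over the square root of F. Detected genes were counted after thinning to 16226270 counts. The procedure was tested on simulated data. DESeq2 1.42.0 and limma 3.58.1 served as alternatives. GENCODE on GRCh38 gave gene positions, with a single match for 101 of 103 named genes.

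The compared groups, the 31 gene lists, 4 of them cell type markers, and the 32 fixed genes, of which 31 could be tested, were chosen with earlier results of these data known. Also named were the 10 largest changes each way without overlap at a mean of 2 CPM or more, 5 each way against LA and RSL3, up to 3 members per list with the smallest p, and interactions past the test. Further list members are given as examples chosen after their values were seen. Lists can share members, so their counts are not separate results. Same-numbered libraries of DMSO and RSL3+LA had residual correlations of -0.0374 to 0.0427, so the numbers were not used as pairs. Single values of a few named genes are not reported here, and list counts include them.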

Additional observations from a re-analysis of the deposited data

Results flagged for a closer look

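In 214 checks of groups of 4 libraries, 1 library stood apart from the other 3 in 14, where chance gives about 1 in 20. In RSL3+LA these were GPX4 in replicate 3 (75.65 CPM against 89.63 to 92.12), PFKFB4 in replicate 1 (57.29 against 39.12 to 41.67), SLC2A1 in replicate 1 (299.9 against 275.6 to 279), SLC7A1 in replicate 2 (250.6 against 275.4 to 280.5), UQCRC1 in replicate 2 (233.5 against 243.2 to 243.7), GSTP1 in replicate 4 (305.9 against 283.9 to 287.4) and TPM2 in replicate 4 (798 against 730.5 to 733.8). In DMSO they were TFRC (1134 CPM), RRM2 (542.1) and ELOVL6 (40.47) in replicate 4, CTSD in replicate 3 (63.04), and ANGPTL4 (0.3677) and PLIN2 (0.05252) in replicate 1, the last of these 1 count against 0. The share of counts in the 100 most abundant genes was 20.207% in DMSO replicate 4 against 19.985 to 20.007% in the others.

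The response to RSL3 differed with LA present in 4 genes by the interaction test, all lower with LA: HMOX1 (-1.45), DDIT4 (-1.61), SLC7A11 (-0.76) and NPC1 (-0.39).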

How the results depend on the processing

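No named gene that passed the test changed direction under the alternatives run (0 reversals). Of 92 named genes called in RSL3+LA against DMSO, 86 kept their call under all 16 alternatives run, and 6 lost it under at least 1: MIR34AHG, NOMO1, ALDH3B1, CCNA2, NPIPB5 and TNFRSF10B. The count of 1672 genes became 2541 with limma voom and quality weights per group, of which 1667 were shared and all of the same direction. It was 2366 with only the groups compared in the fit, and 1270 to 1539 when single libraries were left out. Against LA the count of 8 became 164 with no low-count filter, 37 with DESeq2, 16 with limma voom and quality weights, 15 when the conjugated acid libraries were left out of the fit (an alternative chosen after seeing the data), and 4 to 9 when single libraries were left out. The interaction count of 4 became 132 with no filter, 37 with DESeq2, 21 with quality weights and 3 to 5 when single libraries were left out. Single-library ranges were 1071 to 1439 for the 1564 genes against RSL3 and 3540 to 4025 for the 4254 against RSL3+CLA18:2. The cause of these shifts was not tested. With the replicate number as a block, the pairing gave 1695, 7, 1592, 4 and 4281 calls in the same order of comparisons, and GCNT3 lost its call against LA. List counts changed by more than 1.5 times in 53 of 496 checks, 20 higher, 27 lower and 6 from 0. DESeq2 gave no adjusted p for some named genes, which then had no value. Depth limits genes of few counts, such as ANGPTL4, GCNT3, AKR1C1 and FOS, whose folds are rough.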
